A study of Drosophila melanogaster with 9 samples.

Results

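The pericentromeric peaks were the H3K27me3 peaks that, in larvae of the third instar (Drosophila melanogaster), lay wholly next to the centromere on 4 chromosome arms: on 2L and X beyond 22 Mb, on 3L beyond 23 Mb and on 3R below 4.2 Mb (dm6). They were chosen by position alone, and numbered 5627 of the 42221 peaks in 6 deposited lists. The lists came from chromatin immunoprecipitation and sequencing of whole larvae raised at 25 °C, with 2 libraries in each of 3 groups. The groups were wild-type males, males of genotype roX1[ex6]roX2[9-4], mutant for both roX genes and labelled knockout and here called roX knockout or roX-deficient, and wild-type females. No allele or agent is given for the wild-type larvae. The sources used here do not say how many larvae were pooled or whether the replicates of a group were separate cultures. Replicates may thus differ for technical reasons alone, and p-values rest on libraries, not on cultures known to be separate. The 3 inputs were not used here.

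H3K27me3 is placed by Polycomb repressive complex PRC2 and is best known in flies from broad domains over silent developmental genes in euchromatin. Pericentromeric DNA is instead rich in repeats, poor in genes and packed as constitutive heterochromatin, where methylated H3K9 and the protein HP1 are the usual marks. The roX RNAs are noncoding parts of the MSL complex, which coats the single X of males and raises its transcription, and females do not assemble that complex.

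The spans measured 1.51 Mb on 2L (22000001 to 23513438), 5.11 Mb on 3L (23000001 to 28108922), 4.2 Mb on 3R (1 to 4200000) and 1.54 Mb on X (22000001 to 23539180), those of 2L, 3L and X ending at the last annotated gene or peak of the arm and that of 3R beginning at the first base of the arm. They held 145 protein-coding genes. Coding genes were 24.4 per Mb in the 2L span, 7.05 in 3L, 3.10 in 3R and 38.3 in X, against 97.2 to 121 per Mb in the rest of the same arms. At the outer edges, the nearest peak inside a span began 0.136 to 7.78 kb from the edge on 2L, 5.31 to 38.9 kb on 3L, 4.63 to 213 kb on 3R and 1.4 to 130.4 kb on X over the 6 lists. The nearest peak outside lay 1.51 to 29.2 kb away on 2L, 22.96 to 101 kb on 3L, 6.22 to 10.2 kb on 3R and 2.7 to 44.6 kb on X. These inner peaks were 0.249 to 28.7 kb wide and the outer ones 0.223 to 2.02 kb wide. In 1 list, that of knockout replicate 2, 1 peak crossed the 2L edge and was left out.

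The lists held 4784 to 10619 peaks each. They give no read counts, so depth is unknown and sequence without a peak had none detectable at that depth. Peaks with −log10 q of at least 3 were 22.8% and 20.3% of the lists in wild-type males, 14.97% and 12.97% in roX-deficient males and 9.21% and 8.91% in females, so the lists differed in how many peaks were strong. Peaks covered 301.4 and 235.6 kb of the Y chromosome in wild-type males, 166.1 and 166.6 kb in roX-deficient males and 25.2 and 30.4 kb in females, which carry no Y. With 2 libraries a group, the smallest two-sided p of an exact permutation test is 0.333, so group differences are read from the gap between groups against the spread within them.

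Pericentromeric H3K27me3 peaks covered 0.371 times as much sequence in females as in wild-type males, while the covered length in roX-deficient males overlapped that of wild-type males. The 4 spans together held 1106 and 954 peaks over 2176 and 1789.9 kb in wild-type males. Knockout males had 1111 and 1256 peaks over 1945 and 1986 kb. Females had 552 and 648 peaks over 640.1 and 829.5 kb. Both female libraries lay far below all 4 male libraries, while the knockout libraries lay between the 2 wild-type male libraries. The log2 ratio of female to wild-type male length was -1.44, and the groups stood 1.11 apart where replicates of a group differed by 0.37 or less (two-sided exact permutation p = 0.333). The log2 ratio of knockout to wild-type male length was -0.0059, with overlapping groups (two-sided exact permutation p = 1). That ratio depended on the peaks kept, at -0.91 with strong peaks alone and 0.70 with the lists cut to equal total length, and none of these passed a test. Whether the Y chromosome, whose coverage also differed between these groups, has a part in the difference was not tested, and sex and Y chromosome cannot be told apart here.

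The direction was opposite in the rest of the same arms. There, peaks covered 10.8% and 10.6% of sequence in wild-type males, 12.5% and 14.2% in females and 8.43% and 7.01% in roX-deficient males. Within each library the log2 ratio of percent covered in the spans to percent covered outside was 0.71 and 0.46 in wild-type males, -1.27 and -1.08 in females and 0.90 and 1.20 in roX-deficient males. The gap between females and wild-type males in this ratio was 1.53, against at most 0.25 between replicates (two-sided exact permutation p = 0.333). The knockout libraries lay above the wild-type males by a gap of 0.19, smaller than the 0.30 between the knockout replicates (two-sided exact permutation p = 0.333). Over all 6 libraries the ratio was 0.15 ± 1.06 (SD, n = 6), higher in the spans in the 4 male libraries only, and did not differ from 0 (exact sign-flip permutation test, two-sided, adjusted p = 0.719 over the 5 tests of the spans and their sum). These 5 tests pool the 3 groups, so their SDs include the differences between groups. As a share of each library's coverage of the 6 arms, pericentromeric sequence made up 13.7% and 11.9% in wild-type males, 14.9% and 17.4% in roX-deficient males and 4.12% and 4.67% in females.

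**Figure D1:**
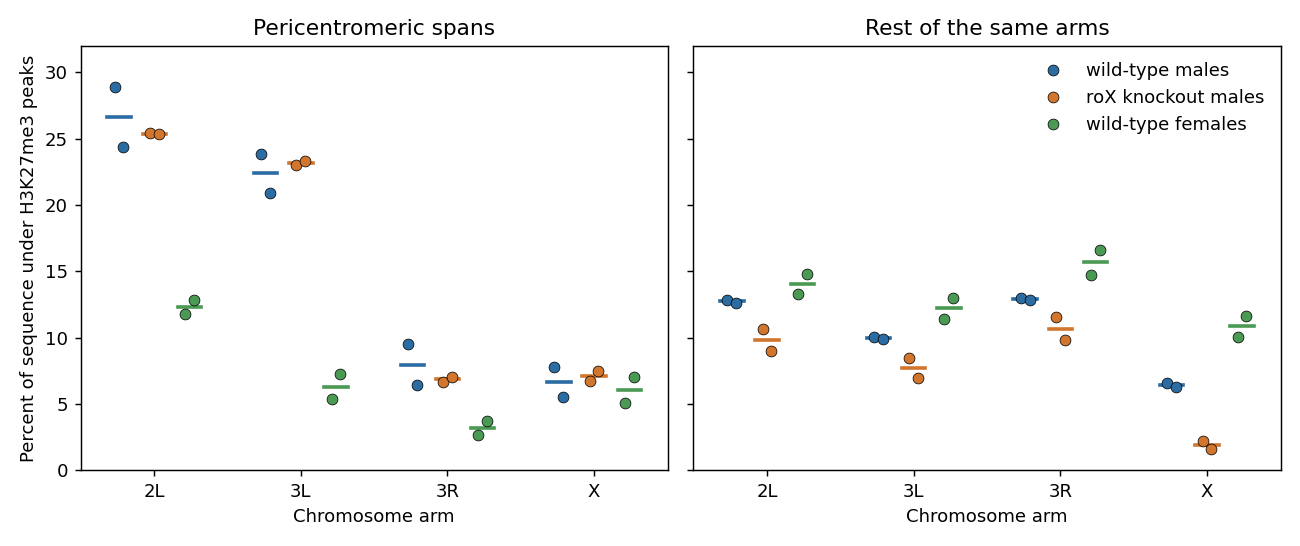
Percent of sequence under H3K27me3 peaks (vertical axis) by chromosome arm, in the pericentromeric spans (left) and in the rest of the same arms (right); points are libraries and bars are means of 2. Female points lie below all male points in the 2L, 3L and 3R spans, at 12.3%, 6.30% and 3.19% on average, and above them outside the spans.

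Arm 3L held most of the members and the widest difference. Its span was covered over 23.9% and 20.9% in wild-type males, 23.03% and 23.3% in roX-deficient males and 5.35% and 7.26% in females. The female to wild-type male log2 ratio of length was -1.84, the groups standing 1.52 apart and replicates 0.44 or less (two-sided exact permutation p = 0.333). The number of peaks on 3L was 570 and 506 in wild-type males, 629 and 715 in roX-deficient males and 254 and 308 in females. The peaks were also narrower in females, with medians of 0.804 and 0.919 kb against 1.295 and 1.303 kb in wild-type males and 1.235 and 1.096 kb in roX-deficient males. Peaks of 5 kb or wider on 3L numbered 56 and 44 in wild-type males, 40 and 28 in roX-deficient males and 2 and 3 in females. The difference in length therefore had 2 parts, fewer peaks and narrower ones.

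The 2L span was the most densely covered. Coverage was 28.9% and 24.4% in wild-type males, 25.4% and 25.3% in roX-deficient males and 11.7% and 12.8% in females. The female to wild-type male log2 ratio of length was -1.11 (gap 0.93, at most 0.25 between replicates). On 3R coverage was 9.52% and 6.41% in wild-type males, 6.69% and 7.02% in roX-deficient males and 2.64% and 3.73% in females, a female to wild-type male log2 ratio of -1.32 (gap 0.78, at most 0.57 between replicates). The 3R span was less covered than the rest of its arm in all 6 libraries, at a log2 ratio of -1.23 ± 0.88 (SD, n = 6). An exact sign-flip permutation test gave p = 0.0312 (two-sided, the smallest possible) and an adjusted p = 0.156 over the 5 tests, so this did not pass.

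In covered length the X span did not follow the autosomes. Coverage there was 7.76% and 5.53% in wild-type males, 6.70% and 7.51% in roX-deficient males and 5.07% and 7.02% in females, and all 3 groups overlapped. In the rest of X, peaks covered 6.57% and 6.28% in wild-type males, 2.18% and 1.59% in roX-deficient males and 10.1% and 11.7% in females, with no overlap. Span over rest on X was therefore a log2 ratio of 0.24 and -0.18 in wild-type males, 1.62 and 2.24 in roX-deficient males and -0.99 and -0.73 in females. By this ratio females lay below wild-type males by a gap of 0.55, against at most 0.42 between replicates (two-sided exact permutation p = 0.333). The gap between knockout and wild-type males was 1.38, against at most 0.62 between replicates (two-sided exact permutation p = 0.333). The low coverage of X in the knockout thus lay outside the pericentromeric span, where coverage overlapped that of wild-type males. With 64 to 93 peaks per library, the X span was the least sampled of the 4.

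Coverage was uneven along the spans. In windows of 250 kb on 3L, wild-type males were highest at 2 to 2.25 Mb from the outer edge (51.8% and 51.2%) and at 3 to 3.25 Mb (47.5% and 40.2%), and at 3.5 to 3.75 Mb they had 4.23% and 5.12%. Females were also highest at 2 to 2.25 Mb, with 19.4% and 26.0%, and had 9.66% and 10.9% at 3 to 3.25 Mb. Both female libraries lay below both wild-type male libraries in 44 of 49 windows (89.8%), in all 20 on 3L, all 6 on 2L, 16 of 17 on 3R and 2 of 6 on X. Over all 250 kb windows of the 6 arms that held in 22.1%, and the opposite in 62.5%. The exception on 3R was the innermost 0.2 Mb, at 4.61% and 1.27% in wild-type males, 3.72% and 5.44% in roX-deficient males and 8.48% and 18.5% in females. Knockout libraries were below both wild-type male libraries in 16 windows (32.7%, against 42.9% over the arms) and above them in 11 (22.4%, against 15.9%).

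**Figure D2:**
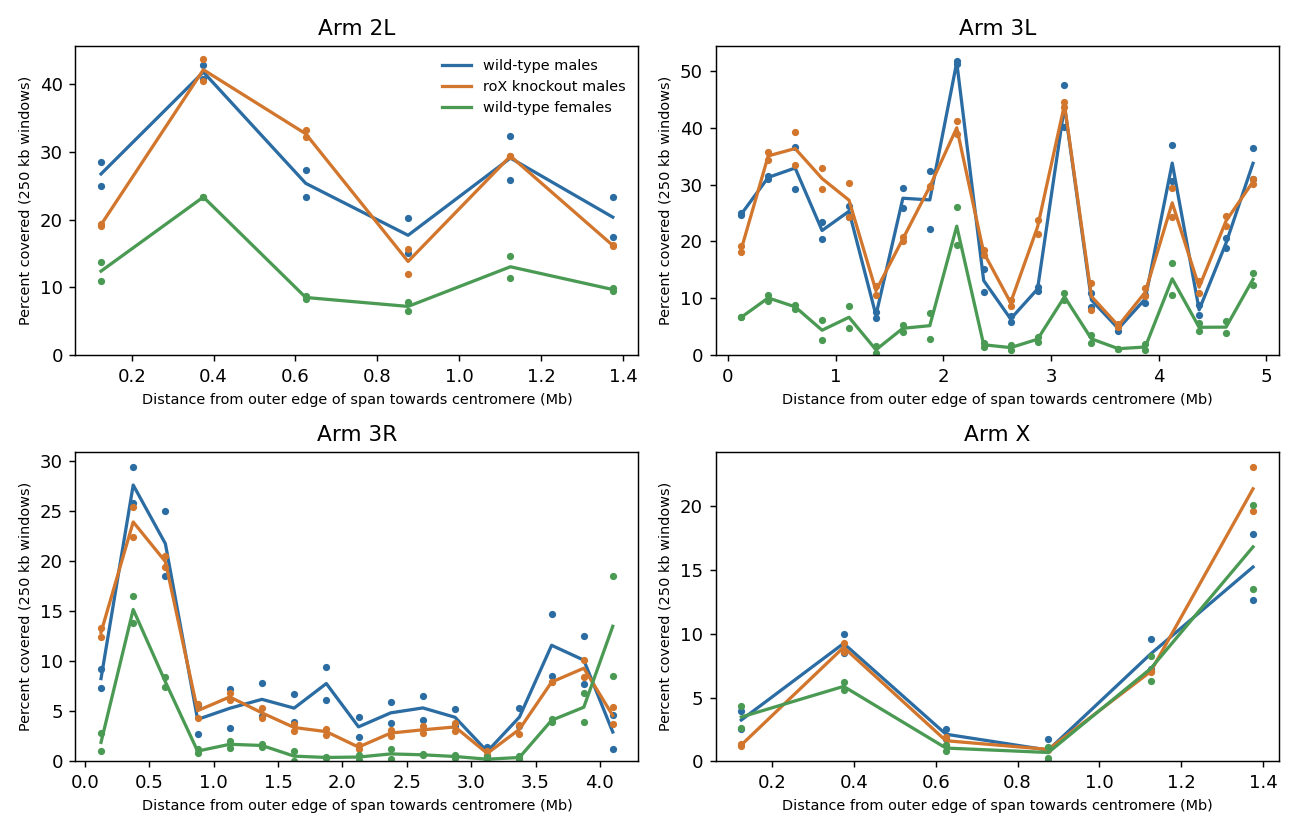
Percent covered by pericentromeric peaks (vertical axis) in 250 kb windows, by distance in Mb from the outer edge of each span towards the centromere; lines are group means and points are the 2 libraries. The female line runs below both male lines along 2L and 3L and crosses above them in the innermost window of 3R, at 8.48% and 18.5%.

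By covered bases, overlap between libraries was lower here than in the rest of the arms. The Jaccard index of covered bases in the spans was 0.589 for the wild-type male replicates, 0.500 for the knockout and 0.399 for the female replicates, against 0.767, 0.566 and 0.471 in the rest of the arms. Between wild-type and roX-deficient males it was 0.444 to 0.477 in the spans, and between wild-type males and females 0.229 to 0.294, below that of any replicate pair. The index is limited by unlike covered lengths, so the low values for females do not by themselves show peaks at different places. The authors' fold of members was low, with a median of 1.71 to 1.85 in the 6 lists and a maximum of 5.80, close to the medians of 1.67 to 1.82 for other peaks of the same arms. By −log10 q within each list, the median member stood at the 59.2nd to 66.2nd percentile of the peaks of these arms.

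The peaks of the 6 lists merged into 1390 pericentromeric regions, of 15548 on the 6 arms, with a median width of 1.39 kb. Regions with 50% or more of their bases under peaks of a library counted as marked there. Wild-type males had 733 and 515 marked regions, roX-deficient males 656 and 701, and females 139 and 196. Regions that the 2 wild-type males shared as marked and the other group lacked in each library were called lost, and those with the opposite pattern gained. Relative to wild-type males, females lost 290 regions (20.9%, against 4.91% of all regions of the 6 arms) and gained 19 (1.37%, against 6.98%). Knockout males lost 90 (6.47%, against 4.1%) and gained 108 (7.77%, against 1.79%). The wild-type males shared 402 marked regions, of which 72.1% were lost in females and 22.4% in the knockout, against 34.6% and 56.0% of the 662 such regions in the rest of the 4 arms. Of the 380 regions marked in each roX-deficient library 28.4% counted as gained, close to the 31.1% of 254 in the rest of the arms. Of the 73 marked in each female library 26.0% counted as gained, against 69.0% of 1247. By arm, females lost 35 regions on 2L, 174 on 3L, 64 on 3R and 17 on X, and 9 of the 19 gains were on 3R. The 2 comparisons share the wild-type male libraries. A call at the 50% limit needs every library of both groups, so leaving out 1 library relaxes the rule, and a rise in the counts is built in. Without wild-type male replicate 1 or 2 females lost 450 and 626 regions, and without knockout replicate 1 or 2 the knockout gained 345 and 275. The knockout losses were 173 and 273 without wild-type male replicates 1 and 2 and 159 and 169 without knockout replicates 1 and 2, its gains were 195 without wild-type male replicate 1, and the female gains were 31 without that library and 83 and 61 without female replicates 1 and 2. limma on the covered percent of all regions called none in either comparison at an adjusted p under 0.05; at an unadjusted p under 0.05 it gave 203 of 1107 members lower and 15 higher in females, against 317 and 930 of 12645 other regions. In the knockout it gave 69 of 1325 members lower and 83 higher, against 461 and 178 of 6477 other regions. In fixed windows of 5 kb the share lost in the knockout was 3.53% in the spans and 3.83% over all windows. The excess of knockout losses by the 50% rule thus did not appear in either of these counts.

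**Figure D3:**
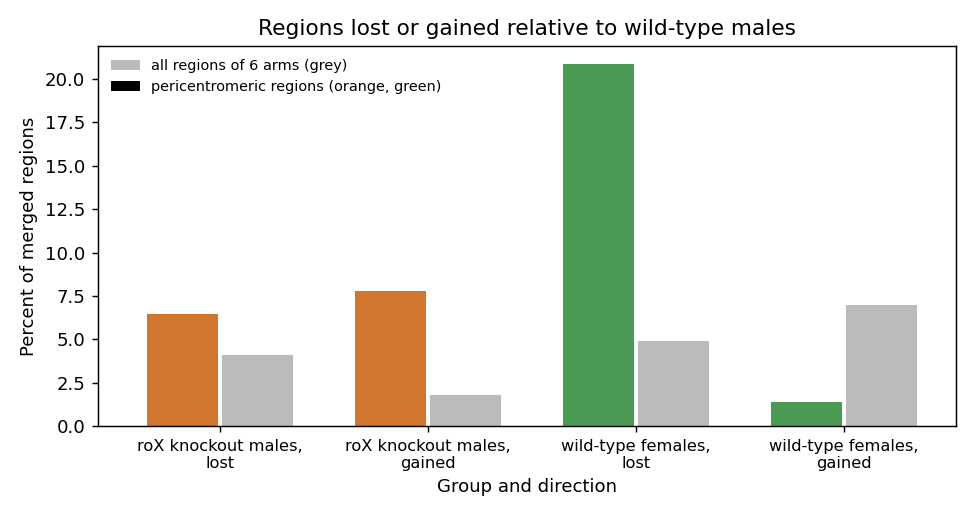
Percent of merged regions (vertical axis) lost or gained relative to wild-type males, for pericentromeric regions (orange for roX-deficient males, green for females) and all regions of the 6 arms (grey). The female losses, 20.9% of pericentromeric regions against 4.91% of all, and the female gains, 1.37% against 6.98%, stand on opposite sides of the grey bars.

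Marked in all 4 male libraries and in no female library were 125 regions (8.99%, against 1.39% of all regions), 88 of them on 3L. The reverse pattern held for 10 regions (0.719%, against 6.44%). The widest male region of this kind was 34.7 kb on 2L (22006981 to 22041646), which holds tio, CG31693, Grl40a and CG31601. It was covered over 89.8% and 87.8% in wild-type males, 75.9% and 59.7% in roX-deficient males and 37.9% and 43.0% in females. Among regions of 3L without coding genes, the one of 22.2 kb beside CG40045 (24037614 to 24059838) was at 90.9% and 86.1%, 67.9% and 82.1%, and 36.2% and 45.8% in these groups. The one of 23.3 kb over lncRNA:CR40053 (23989443 to 24012741) was at 77.3% and 87.1% in wild-type males, 75.6% and 62.6% in roX-deficient males and 12.9% and 38.2% in females. At the inner end of the 3L span, 14.6 kb beyond l(3)80Fj (28015817 to 28030412) was at 83.7% and 88.5%, 76.2% and 70.6%, and 4.72% and 4.47%. On 2L, 16.2 kb at a distance of 16.3 kb from Marf1 (22276266 to 22292492) was at 93.4% and 80.6% in wild-type males, 68.9% and 77.8% in roX-deficient males and 7.27% and 14.4% in females. That the 2 female libraries were lower than all 4 male libraries in each of these regions follows from the rule that chose them. A female region with the reverse pattern was 5.39 kb between RpL15 and Dbp80 (3L, 27270257 to 27275649), at 68.7% and 70.5% in females, 40.6% and 31.8% in wild-type males and 14.2% and 0% in roX-deficient males.

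Marked in all 6 libraries were 31 regions (2.23%, against 1.43% of all regions), 8 on 2L, 12 on 3L, 4 on 3R and 7 on X. None of them overlapped a protein-coding gene, against 37.7% of all regions in the spans that did. They were 1.19 to 54.97 kb wide. The longest lay on 2L, 39.7 kb from Marf1, a gene for an RNA-binding protein of meiosis (22408539 to 22463512). It was covered over 93.1% and 86.6% in wild-type males, 89.2% and 85.3% in roX-deficient males and 72.6% and 71.1% in females. A neighbour of 11.9 kb (22468188 to 22480093) was at 93.7% and 87.5%, 88.6% and 91.1%, and 64.5% and 60.8%. On X, 8.68 kb at a distance of 21.4 kb from CG41562 (22273823 to 22282498) was at 99.95% and 99.8% in wild-type males, 85.3% and 99.9% in roX-deficient males and 69.9% and 59.0% in females. At each of these 3 regions the female libraries were the lowest, but this did not hold for all 31. The 3 were also among the most covered of their spans on average over mostly male libraries, a ranking that favours regions covered in males. On X, 2.25 kb (23485438 to 23487687) was at 81.6% and 95.1% in females. Wild-type males had 59.3% and 61.9% there, and roX-deficient males 61.1% and 59.3%. A different pattern was seen in 25.3 kb beside nAChRalpha4 (3L, 23287760 to 23313022), where wild-type males had 96.1% and 86.8%, roX-deficient males 48.2% and 55.7% and females 46.2% and 54.6%, the latter pairs overlapping. At the other extreme 389 regions (28.0%) had a peak in 1 list only, against 60.1% in the rest of the arms. By this count of regions the lists shared more in the spans, unlike the overlap by covered bases.

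**Figure D4:**
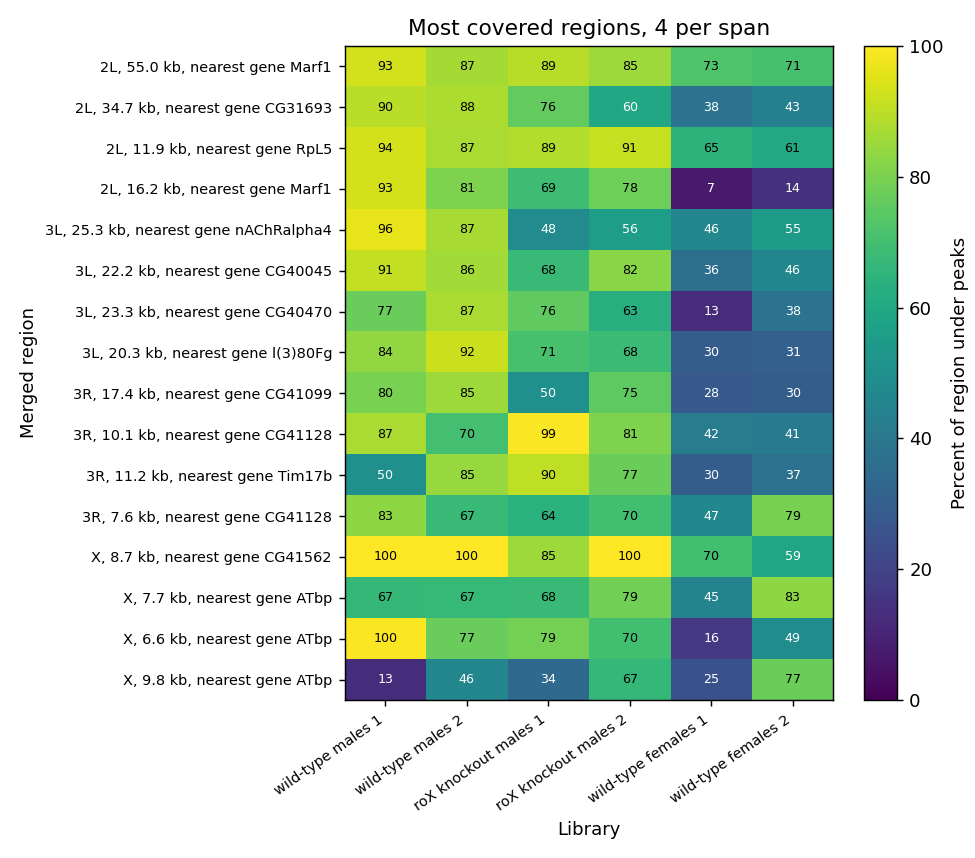
Percent of each region under peaks (colour, and number in each cell) in the 6 libraries for the 4 regions of each span with the most covered bases. Rows name the arm, the width and the nearest coding gene. The ranking averages over mostly male libraries and so favours regions covered in males. The 2 female columns are darker than the male ones in most rows of 2L, 3L and 3R, as in the 2L region of 16.2 kb near Marf1 at 7.27% and 14.4%.

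The regions lost in the knockout included one at the 3L gene scro, which encodes an NK2-type homeodomain protein of the brain and lies amid heterochromatin. Its 6.22 kb (24720496 to 24726718) were covered over 72.5% and 96.4% in wild-type males, 0% and 10.6% in roX-deficient males and 0% in both female libraries. Similarly, 4.84 kb in l(3)80Fj (27980188 to 27985029) was at 100% and 76.5% in wild-type males and 17.02% and 17.1% in roX-deficient males, with 0% in females. A region of 6.92 kb beside Parp1 (3R, 3590742 to 3597661) was at 85.3% and 83.2% in wild-type males, 26.4% and 39.5% in roX-deficient males and 15% and 31.2% in females. The other 2 with the largest differences, 8.13 kb beside mRpS5 (3L, 24524564 to 24532690) and 6.01 kb near Set1 (3L, 25078551 to 25084555), averaged 73.9% and 75.6% in wild-type males against 25.8% and 18.8% with the mutant roX genes.

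The regions gained in the knockout were led by 19.5 kb on 2L at a distance of 30.5 kb from CG12567 (23111134 to 23130655). It was covered over 45.6% and 36.1% in wild-type males, 88.9% and 78.2% in roX-deficient males and 6.70% and 14.3% in females. Another on 2L of 7.48 kb (23097167 to 23104642) was at 46.0% and 8.61% in wild-type males, 77.6% and 99.6% in roX-deficient males and 0% in females. On X, 6.07 kb (23388067 to 23394133) was at 20.1% and 20.3%, 98.4% and 83.9%, and 24.7% and 49.2%. Inside lovit, a 3L gene for a transporter of photoreceptors, 9.60 kb (25239935 to 25249530) was at 71.2% and 88.7% in roX-deficient males against 48.3% and 45.3% in wild-type males. The last, 7.40 kb on 3L at a distance of 89.0 kb from AGO3 (23458205 to 23465604), averaged 39.4% in wild-type males and 88.6% in roX-deficient males. Wild-type values reached 45.6% to 48.3% in the larger 2L region, the smaller 2L region and lovit, so these calls rest on values close to the 50% limit. The regions gained in females included 3 near the inner end of 3R, where no gene is annotated. The one of 8.52 kb (54471 to 62986) was at 65.9% and 100% in females, 28.5% and 21.3% in wild-type males and 35.6% and 66.3% in roX-deficient males.

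Peaks lay less in coding genes than the gene bodies' share of the sequence. Coding gene bodies filled 43.9% of the spans but held 22.3% and 20.3% of the covered bases in wild-type males, 25.3% and 25.1% in roX-deficient males and 13.6% and 12.8% in females. Of the 145 coding genes, 93 (64.1%) had no peak in any library, a share equal to that of the coding genes elsewhere (64.2%). In 8 of the 145, at least 50% of the body was covered in any library. This share was not computed for coding genes elsewhere, so the count does not show a trait of the spans. None of the 145 was lost or gained by the region rule applied to gene bodies (over all 13922 coding genes 1.16% were lost and 0.0718% gained in the knockout, 0.46% and 1.02% in females). tio, a zinc finger gene paralogous to the homeotic regulator teashirt (2L, 22019208 to 22025734), was covered over 100% in each of the wild-type males, 100% and 76.9% in roX-deficient males and 61.3% and 55.2% in females. Its neighbour CG31693 was at 89.6% or more in every library, and both were marked in all 6 libraries. tplus3a was at 86.1% and 78.5%, 52.8% and 0%, and 61.2% and 58.7%. tplus3b, Grl40a, a gustatory receptor-like gene, CG34031, the sulfakinin neuropeptide gene Dsk and CG12446 each passed 50% in 1 library only. Dsk (92.3%) and CG12446 (57.1%) did so in female replicate 2 and were at 0% in the other 5.

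The larger genes of the spans were covered in part, and females were the lowest. In 27 coding genes (18.6%, against 3.21% of all coding genes) both female libraries lay below both wild-type male libraries, and in 1 above (11.5% of all coding genes). Of the 15 genes with the most covered bases 14 were among the 27, the exception being the RNA helicase gene Dbp80. That ranking averages over libraries that are mostly male, so it favours genes covered in males. AGO3, an Argonaute of the piRNA pathway that silences transposons (3L, 23554593 to 23689640), was covered over 36.0% and 28.0% in wild-type males, 38.1% and 43.9% in roX-deficient males and 8.26% and 7.46% in females. Snap25, a SNARE protein gene of synaptic vesicle release, was at 13.2% and 11.9%, 15.4% and 20.9%, and 0.537% and 2.20%. The acetylcholine receptor subunit gene nAChRalpha4 was at 29.7% and 38.6% in wild-type males, 27.03% and 26.8% in roX-deficient males and 7.64% and 6.78% in females. Ir40a, an ionotropic receptor gene of humidity sensing, was at 42.3% and 35.2%, 26.5% and 34.5%, and 9.86% and 10.96%. In these 4 genes, a choice among the 15, the female values were 0.537% to 10.96% and no male value was below 11.9%. Such a separation did not hold in all 15. Dbp80 was at 3.89% and 3.19% in wild-type males and 2.29% and 5.47% in females.

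In the knockout the genes went both ways. Both knockout libraries lay above both wild-type male libraries in 13 genes (8.97%, against 1.79% of all coding genes) and below in 12 (8.28%, against 4.91%). CG40006, on 2L, was at 31.4% and 30.9% in roX-deficient males, 14.1% and 11.9% in wild-type males and 2.70% and 1.85% in females. l(3)80Fg was at 22.2% and 20.6%, 9.97% and 9.28%, and 2.22% and 3.64% in the same order. The 3R gene Myo81F, a myosin gene spread over 1966 kb, had 2.66% and 2.94% in roX-deficient males against 6.01% and 3.74% in wild-type males and 0.313% and 0.675% in females. l(3)80Fj was at 6.18% and 5.66% in roX-deficient males against 15.3% and 13.4%.

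**Figure D5:**
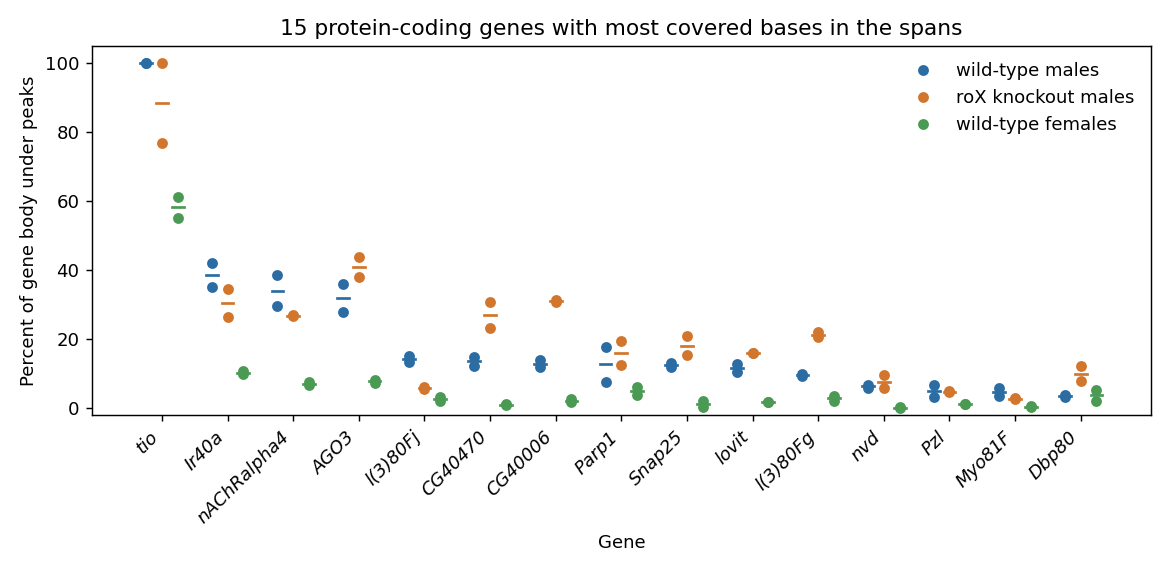
Percent of the gene body under peaks (vertical axis) for the 15 coding genes of the spans with the most covered bases averaged over the libraries; points are libraries and bars are group means. The ranking averages over mostly male libraries and so favours genes covered in males. Female points lie below wild-type male points in 14 of the 15, for example in AGO3 at 8.26% and 7.46%.

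Of 20 genes listed as classic residents of pericentromeric heterochromatin, 19 lay in the spans, and none of the 19 was marked in any library. The share marked in any library was not computed for coding genes elsewhere, so this does not show a trait of the list. No peak was found in any library on 7 of them: fog, a signalling ligand of gastrulation, su(f), an mRNA 3′ end processing factor, the H3K4 methyltransferase gene Set1, the Mediator gene MED21, the ribosomal protein gene RpL15, eIF4B, and spok, a cytochrome P450 gene of ecdysteroid synthesis. Another ecdysteroid gene, nvd, was at 6.74% and 6.07% in wild-type males, 9.74% and 5.80% in roX-deficient males and 0% and 0.470% in females. In AGO3, Snap25, Dbp80, Myo81F, Pzl and Parp1 all 6 libraries had some coverage. Parp1, which encodes poly(ADP-ribose) polymerase, was at 17.9% and 7.66%, 19.7% and 12.7%, and 6.24% and 3.97%. Pzl, a Piezo-like channel gene, was at 6.72% and 3.37%, 5.03% and 4.70%, and 1.24% and 1.30%. The vacuolar sorting gene lt had 10.6% and 0% in wild-type males, 10.6% and 5.70% in roX-deficient males and 1.799% and 0% in females. RpL5 (18.5%) and the G protein gene cta (8.11%) had coverage in female replicate 1 alone, the cohesin gene vtd had at most 2.71%, in males only, and stnB had at most 4.82%. Females were below wild-type males without overlap in 6 of the 19 (against 3.21% of all coding genes), and roX-deficient males were above in 4 (against 1.79%) and below in 1 (against 4.91%).

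Noncoding genes and pseudogenes of the spans numbered 97, of which 28 were marked in any library and 58 had no peak. The same shares were not computed for noncoding genes elsewhere, so these counts do not show a trait of the spans. Wild-type males had 19 and 14 marked, roX-deficient males 12 and 21 and females 4 and 10. lncRNA:CR45335, beside tio, was the only one marked in all 6, at 100% in the 4 male libraries and 82.7% and 92.0% in females. The X span also holds 16 annotated rRNA genes and pseudogenes over 90.9 kb (23200802 to 23291729). That stretch was covered over 28.7% and 21.7% in wild-type males, 22.5% and 26.4% in roX-deficient males and 17.3% and 26.4% in females, so the groups overlapped. Its 28S pseudogene CR41609 (23261772 to 23262666) was at 93.2% and 91.8% in wild-type males, 92.8% and 93.6% in roX-deficient males and 0% in both female libraries. Its 18S pseudogene CR41602 (23211192 to 23213166) was at 68.6% and 68.2% in females, 16.3% and 0% in wild-type males and 0% and 73.2% in roX-deficient males, so single copies went either way. A tandem array of 21 coding genes from CG40813 to CG41562 (X, 22143058 to 22252414) had 0.517% to 2.33% covered, with no peak on any of the 21 genes. Copies of such repeats share reads, and how reads with several matches were placed is not given in the sources used here, so values at rRNA copies, tandem genes and other repeats are uncertain.

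Restricted to the strong peaks, −log10 q 3 or more, the knockout stood below wild-type males. Strong peaks covered 852.5 and 597.2 kb of the spans in wild-type males, 421.7 and 341.9 kb in roX-deficient males and 127.4 and 167.9 kb in females. The 3 groups did not overlap, and the log2 ratio to wild-type males was -0.91 in the knockout and -2.29 in females (two-sided exact permutation p = 0.333 each). Outside the spans these peaks covered 7.57% ± 0.0479 of the 4 arms in wild-type males, 3.80% ± 0.783 in roX-deficient males and 5.09% ± 0.150 in females (SD, n = 2). On 3L the strong peaks covered 417.1 kb ± 86.9 in wild-type males, 168.9 kb ± 28.7 in roX-deficient males and 21.2 kb ± 4.74 in females. Span over rest, by these peaks, was a log2 ratio of -0.13 and -0.65 in wild-type males, -0.35 and -0.23 in roX-deficient males and -2.28 and -1.94 in females, so that here knockout and wild-type males overlapped.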

How the data were processed

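The submitters' processing notes name build dm6 and the tools deepTools 3.5.1, Picard, SAMtools 1.13, Bowtie2 2.4.5 and Trimmomatic 0.39. Which program called the peaks, with which settings and against which inputs, is not given in the sources used here. The authors deposited 1 broad peak list per library, each peak with a score, a fold (ratio over background), a −log10 q of 1 or more, and a −log10 p. Folds were compared only within a list. Depth is unknown, so no counting interval is given.

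Peaks were merged per list, and covered bases computed with Python 3.11.15 and numpy 2.4.6. Genes came from the Release 6 table (the dm6 coordinates). Percentages use spans ending at the last gene or peak of 2L, 3L and X and at base 1 of 3R, gaps in the assembly included. Groups of libraries were compared by exact permutation, the spans with the rest of the arms by exact sign flips over 6 libraries with Benjamini-Hochberg adjustment, and regions by a 50% overlap rule, with limma 3.58.1 as an alternative. The computation was tested on simulated lists. Regions named were the 4 most covered per span and up to 5 lost and gained per comparison; genes named were those marked in any library and a list of 20; other genes were chosen after their values were seen. The members, lists and tests were chosen with earlier results of these data known. No sequences were available in the tables used, and the planned motif search was not run.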

Additional observations from a re-analysis of the deposited data

How the results depend on the processing

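The female to wild-type male log2 ratio of pericentromeric length stayed negative under every alternative tried, from -2.29 (−log10 q of at least 3) to -1.18 (lists of equal total length), and from -1.62 to -1.25 with 1 library left out; as a share of library coverage, an alternative chosen after seeing the data, it was -1.54. The knockout ratio of -0.0059 was 0.022 with gaps of 1 kb joined, 0.70 with lists of equal length, 0.018 with the boundary moved by 500 kb, 0.34 as a share of library coverage (chosen after seeing the data), -0.91 with −log10 q of at least 3, and -0.15 to 0.14 with 1 library left out. The span over rest ratio over 6 libraries, 0.15, was -0.93 with −log10 q of at least 3 (exact sign-flip permutation p = 0.0312, lower in all 6 libraries), -0.0090 with equal lists and -0.00075 with the boundary moved, and -0.057 to 0.44 with 1 library left out. The causes were not tested. Replicate numbers did not pair the libraries (correlations of deviations -0.02 to 0.01). With the replicate block the 2 length ratios were -1.44 and -0.0059 (exact sign-flip permutation p = 0.5 and 1, where 0.5 is the smallest possible).

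Counts of regions moved by over 1.5 times as follows. With −log10 q of at least 3, females lost 84 and gained 4 regions, and the knockout lost 54 and gained 12. With equal lists females lost 107, and the knockout lost 17 and gained 206. Marked at 80%, females lost 138 and gained 8, and the knockout gained 45; with 1 bp of overlap the knockout lost 55. In windows of 5 kb females lost 161 (10.9%, against 3.15% of all windows) and gained 3 (0.204%, against 0.705%), and the knockout lost 52 (3.53%, against 3.83%) and gained 32 (2.17%, against 0.389%). limma called 0 with or without the replicate block; at an unadjusted p under 0.05 the block left 87 members lower and 7 higher in females and 47 lower and 51 higher in the knockout. With 1 library left out, which relaxes the rule, the ranges were 316 to 626 and 22 to 83 for female losses and gains and 159 to 273 and 135 to 345 for the knockout. By span, the knockout ratio changed sign on 2L (0.50 with equal lists, and -0.19 to 0.059 with 1 library left out), 3L (-1.30 with −log10 q of at least 3, and -0.042 to 0.15 with 1 left out), 3R (1.00 with equal lists, and -0.47 to 0.096 with 1 left out) and X (-0.20 with −log10 q of at least 3, and -0.13 to 0.36 with 1 left out). The female ratio changed sign on X alone, at 0.098 with equal lists and -0.38 to 0.11 with 1 left out.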
